A study of Mus musculus with 9 samples.

Results

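The transcripts described here are those of 10 mouse tetraspanin genes, Cd63, Cd9, Cd81, Cd82, Cd151, Tspan3, Tspan4, Tspan8, Tspan12 and Tspan33, taken by gene symbol from a liver RNA-seq table of 30519 genes with 1 transcript each. They were chosen by family and with their abundances in KO and WT livers already known, so their genotype differences are given as a description, and whether each was called is stated without weight. All 10 passed the filter on low abundance (a mean of at least 1 over all livers), and 9 of the 21 other tetraspanins with a row in the table also did. The livers came from 4 mice without miR-122 (KO) and 5 littermates that carry the floxed allele and served as controls (WT), all 6 weeks old. KO replicate 1 and WT replicates 1, 2 and 3 were female and the other livers male. The sources used here name no Cre line. Genotypes were taken from the labels alone, since no transcript of the miR-122 locus was analysed here. RNA came from uncrosslinked powder of frozen liver and was selected for polyA tails. Hepatocytes contain miR-122 in very high amounts, and the series set this RNA-seq beside maps of Argonaute binding to find the transcripts bound and deregulated through it.

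Tetraspanins are small proteins that cross the membrane 4 times and bind one another and other membrane proteins, such as integrins, adhesion proteins and proteases, into local assemblies. Several of them, with CD63, CD9 and CD81 as the usual examples, are carried on extracellular vesicles, and CD63 is also a protein of late endosomes and lysosomes. A microRNA represses a transcript chiefly through sites in its 3' UTR that pair with the seed, bases 2 to 8 of the microRNA.

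Sequences that pair with that seed were looked for first, because miR-122 is the molecule that differs between the genotypes. On the sense strand of the 3' UTR these are ACACTCC and CACTCCA, both of which contain the 6-base core CACTCC. None of the 10 listed transcripts held a site of 7 or 8 bases, and 13.1% of 9834 tested transcripts with a 3' UTR of at least 50 bases did. The 6-base core alone was present in Cd82 and Tspan33, while 25.2% of the same transcripts hold a site of 6 to 8 bases. The window around the core of Tspan33, and those around the 7-base sites of Tspan7 and Tspan32, tetraspanins outside the 10, are shown to let the match be read. Tspan1 and Tspan5, also outside the 10, hold 7-base sites that are not shown. Capitals mark the bases that pair with the seed, and the sequences are those of GENCODE M21 transcripts (GRCm38), 5' to 3' on the transcript.
Tspan33 (chr6:29718206-29718235, plus strand): cttgcctagccgCACTCCcaggtagtcaga
Tspan7 (chrX:10595772-10595801, plus strand): acgtgcaactgACACTCCtacccagtcaaa
Tspan32 (chr7:143019422-143019451, plus strand): tgggattacccACACTCCttataagtaact
Cd82 was higher in KO livers and Tspan33 lower, as the values below show. The 3' UTRs were 75 bases long in Cd63, 219 in Tspan8 and 395 in Cd9, the 3 genes with the largest increases, and up to 1236 in Tspan12, against a median of 896 over the tested transcripts.

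The whole table sets the scale for these values. Abundances are normalised per transcript length, so levels of different genes can be set side by side. Reads inferred from the deposited values and mean observations came to 15.0 to 16.9 M (mega) per KO liver and 18.1 to 20.4 M per WT liver on the library-normalised scale, and depth before that normalisation is not known. Hepatocyte markers were abundant in all livers, with Alb (albumin) at 37940 to 54092 in KO livers and 29487 to 90015 in WT livers. One WT column is named male while its sample is labelled female. Ddx3y, on the Y chromosome, was 0.0422 in that library and no lower than 13.2 in any male, and the labelled sex was used. With every library scaled to the same total, the median log2 fold change of all tested transcripts moved to 0.36, against 0.03 on the deposited scale, so small differences in either direction depend on that choice.

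Of the 10 tetraspanins, 7 were higher and 3 lower in KO livers by the limma fit across all transcripts (adjusted p under 0.05). In that fit 35.9% of 10950 transcripts were called, 21.4% higher and 14.5% lower, and since the 10 were picked with these values known, nothing is read from their count. The submitters' own test, from the authors' deposited table, called 8 of the 10 (q under 0.05), against 25.2% of 13540 transcripts. With equal totals 7 were called higher and none lower, against 45% and 2.72% of the tested transcripts and 47.7% in either direction. The lowest KO value lay above the highest WT value for 7 of the 10 and below the lowest for 1, against 19% and 12.1% of all tested transcripts (31.1% in either direction). The median log2 fold change of the 10 was 0.65. Whole liver was sequenced, so fewer cells of a type and less RNA per cell cannot be told apart. Marker sums of some other cell types, given further on, also differed between the genotypes. Together the 10 transcripts summed to 489 ± 17.7 in KO livers and 322 ± 8.88 in WT livers (SD, n = 4 and 5). Cd81 made up 34.2% ± 0.888 of that sum in KO livers and 43.3% ± 2.45 in WT livers, whereas Cd63 made up 18.2% ± 1.01 in KO livers and 2.64% ± 0.577 in WT livers.

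**Figure D1:**
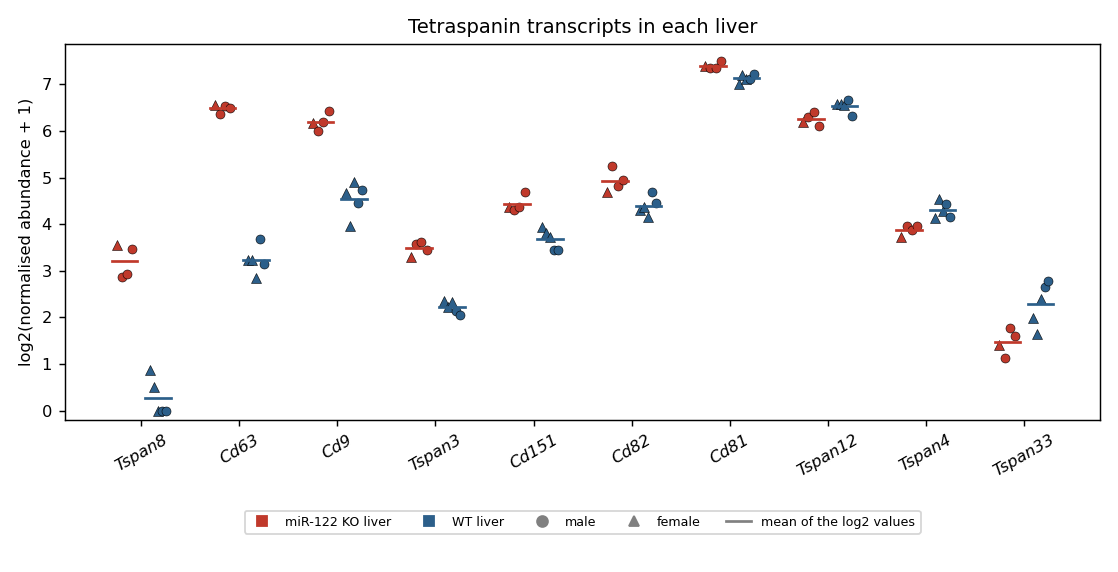
Abundance of each tetraspanin transcript, as log2(normalised abundance + 1), in every KO liver (red, left of each pair) and WT liver (blue, right), with circles for males, triangles for females and a line at the mean. Genes run from the largest to the smallest ratio of means, from Tspan8 with 3 of 5 WT livers at 0 to Tspan33, whose KO mean of 1.81 lies under its WT mean of 4.09.

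**Figure D2:**
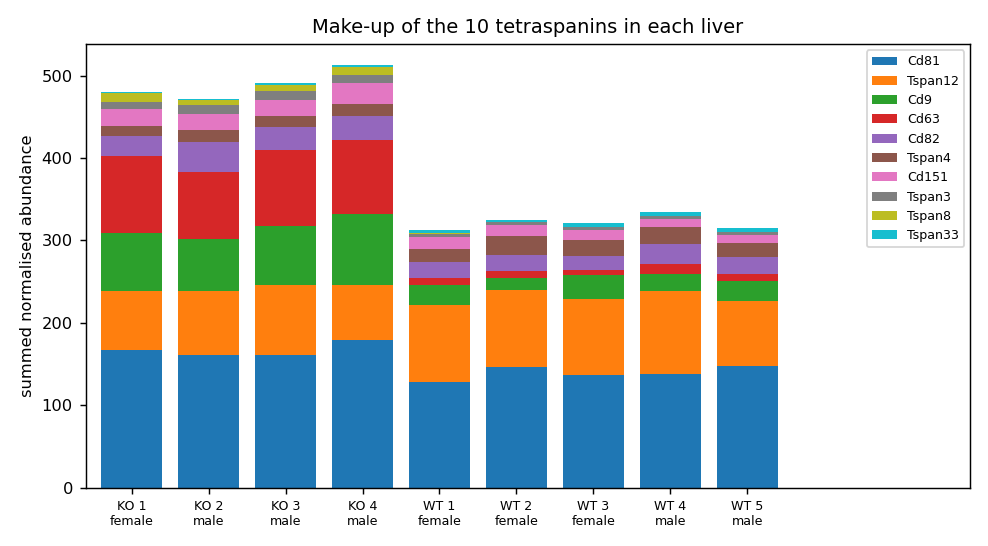
Stacked normalised abundance of the 10 tetraspanins in each liver, KO replicates 1 to 4 followed by WT replicates 1 to 5. Cd81 and Tspan12 fill most of the WT bars, and the taller KO bars (472 to 513 in KO, 312 to 335 in WT) hold broad bands of Cd63 and Cd9.

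Cd63 showed the largest difference of the 10 on the log2(value + 1) scale over all livers. Tspan8 exceeded it with pseudocounts of 0.5 (3.66 for Tspan8, 3.33 for Cd63) and 0.1 (5.26 for Tspan8, 3.40 for Cd63), and in the ratio of means. The same held among males alone (3.085 for Tspan8, 3.055 for Cd63) and in the authors' deposited table (6.59 for Tspan8, 3.36 for Cd63). The listed transcript of Cd63, ENSMUST00000026407 (chromosome 10, 128909699 to 128912815, plus strand, GRCm38), has 8 exons. Cd63 stood at 92.8, 81.0, 91.8 and 89.5 in KO livers 1 to 4, against 8.37, 8.39, 6.20, 11.8 and 7.80 in WT livers 1 to 5. No KO liver came near the WT range, and the KO livers varied little, with a coefficient of variation of 6.002% against 24.2% in WT livers. The means of 88.8 ± 5.33 in KO livers and 8.52 ± 2.06 in WT livers differed 10.4-fold, a log2 fold change of 3.26 (SE 0.14) that lay above 99.9% of all tested transcripts. About 996 to 1140 normalised reads supported each KO value and 76.2 to 145 each WT value.

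Cd9, which binds integrins and the membrane precursor of the growth factor HB-EGF, was also high in every KO liver. Cd9 stood at 70.7, 62.7, 72.2 and 85.3 in KO livers 1 to 4, against 24.4, 14.6, 29.0, 20.8 and 25.4 in WT livers 1 to 5. The ranges were far apart, and even WT replicate 3, the highest control, lay below every KO liver by a wide margin. The means of 72.7 ± 9.38 in KO livers and 22.8 ± 5.47 in WT livers gave a ratio of 3.18 and a log2 fold change of 1.65 (SE 0.18).

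Cd81, the co-receptor that hepatitis C virus uses on human hepatocytes, was the most abundant of the 10 in both genotypes and differed least among those that were higher. Cd81 stood at 167, 161, 162 and 179 in KO livers 1 to 4, against 128, 146, 137, 139 and 147 in WT livers 1 to 5. The ranges did not overlap, but the gap between them was small. Its means of 167 ± 8.31 in KO livers and 139 ± 7.90 in WT livers differed 1.2-fold, with a log2 fold change of 0.26 (SE 0.07). In the authors' deposited table its log2 fold change was 0.22, and the submitters' own test did not call it.

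Tspan8, a tetraspanin of epithelial cells such as those of the gut, was close to undetected in WT livers, and passed the filter only through the KO livers. Tspan8 stood at 10.7, 6.27, 6.62 and 10.04 in KO livers 1 to 4, against 0.817 and 0.416 in WT livers 1 and 2 and a listed value of 0 in WT livers 3, 4 and 5. The KO values rested on 138 to 235 normalised reads, and the WT values on 18.05 and 9.19 in the first 2 and none in the others. The ratio of means, 34.0, rests on those few WT reads and is imprecise, and the log2 fold change of 2.93 (SE 0.23) on the log2(value + 1) scale understates the change of so low a gene.

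The starts of Cd63 and Tspan8 are shown because these 2 genes differed most and in a similar way. Each stretch runs from 250 bases before to 50 after a RefSeq gene start (GRCm38.p6, 5' to 3' on the plus strand). The RefSeq start of Cd63 lies 354 bases before the start of its listed transcript, and that of Tspan8 coincides with it.
Cd63 (chr10:128909095-128909394): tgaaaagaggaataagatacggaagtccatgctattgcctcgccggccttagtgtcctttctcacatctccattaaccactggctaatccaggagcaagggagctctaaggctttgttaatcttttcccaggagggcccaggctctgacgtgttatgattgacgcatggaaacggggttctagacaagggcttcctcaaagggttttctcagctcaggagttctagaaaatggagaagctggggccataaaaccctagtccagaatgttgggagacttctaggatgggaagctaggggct
Tspan8 (chr10:115817034-115817333): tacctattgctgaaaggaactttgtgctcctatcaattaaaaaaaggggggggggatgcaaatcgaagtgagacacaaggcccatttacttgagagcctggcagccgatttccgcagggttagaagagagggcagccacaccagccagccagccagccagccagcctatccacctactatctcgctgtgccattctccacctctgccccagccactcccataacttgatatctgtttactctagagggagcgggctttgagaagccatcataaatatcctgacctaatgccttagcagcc
Searched on both strands, neither holds the GC box GGGCGG, the AP-1 element TGANTCA, the E-box CACGTG or the TATA box TATAAA, so no letters are in capitals. Of all 32851 windows of this length, 35.7% hold the GC box, 7.81% the AP-1 element, 7.15% the E-box and 13.6% the TATA box. Among the windows nearest to the 10 listed starts, the GC box occurs in 5 (Cd9, Cd81, Cd82, Cd151 and Tspan33), the TATA box in Cd81 and Tspan12, and the AP-1 element and the E-box in Tspan4. These matches are letters in a window and say nothing about binding.

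Cd151 and Cd82 both associate with integrins. Cd151 stood at 19.6, 18.8, 19.6 and 24.9 in KO livers 1 to 4, against 14.3, 13.1, 12.3, 9.87 and 9.84 in WT livers 1 to 5. All KO values exceeded all WT values, and KO replicate 4 stood above the other KO livers. The means of 20.7 ± 2.80 in KO livers and 11.9 ± 1.97 in WT livers gave a log2 fold change of 0.76 (SE 0.13). The listed transcript of Cd151 is a form that GENCODE rates at support level 5, its lowest, so the value may not stand for the whole gene.

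Cd82 is known as a suppressor of metastasis. Cd82 stood at 24.9, 37.2, 27.4 and 30.01 in KO livers 1 to 4, against 18.7, 19.7, 16.9, 24.8 and 20.8 in WT livers 1 to 5. The ranges only just cleared each other, at 24.94 for the lowest KO liver and 24.80 for the highest WT liver. The means of 29.9 ± 5.30 in KO livers and 20.2 ± 2.95 in WT livers gave a ratio of 1.48 and a log2 fold change of 0.54 (SE 0.13).

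Tspan3, a widely expressed and less studied tetraspanin, was low in WT livers and 2.78-fold higher in KO livers. Tspan3 stood at 8.76, 10.9, 11.3 and 9.88 in KO livers 1 to 4, against 4.08, 3.70, 4.04, 3.38 and 3.16 in WT livers 1 to 5. The ranges were well apart and the spread within each genotype was small, with means of 10.2 ± 1.14 in KO livers and 3.67 ± 0.403. in WT livers Its log2 fold change was 1.26 (SE 0.10).

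Tspan4, Tspan12 and Tspan33 were the 3 that were lower in KO livers. Tspan4, known from migrasomes, the vesicles that migrating cells leave behind, stood at 12.2, 14.7, 13.6 and 14.6 in KO livers 1 to 4. In WT livers 1 to 5 it stood at 16.6, 22.4, 18.5, 20.7 and 16.8. The ranges did not overlap, and the ratio of WT to KO means was 1.38 (13.8 ± 1.14 in KO, 19.0 ± 2.53 in WT; log2 fold change -0.43, SE 0.10). With equal totals the log2 fold change was -0.06 and the gene was not called.

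Tspan12, a partner of the Wnt receptor FZD4 in retinal vessels, was the second most abundant of the 10 in WT livers. Tspan12 stood at 72.3, 77.7, 84.2 and 67.4 in KO livers 1 to 4, against 94.2, 94.4, 92.6, 99.7 and 78.6 in WT livers 1 to 5. WT replicate 5 fell inside the KO range. Its log2 fold change was -0.28 (SE 0.09), and with equal totals it reversed to 0.11, which was not called. Females were 1 of 4 KO and 3 of 5 WT livers, and with sex as a covariate Tspan12 was not called either.

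Tspan33 belongs to the TspanC8 group of tetraspanins, which escort the protease ADAM10 to the cell surface, and is known in red blood cell precursors and activated B cells. Tspan33 stood at 1.64, 1.17, 2.39 and 2.04 in KO livers 1 to 4, against 2.96, 2.12, 4.22, 5.28 and 5.88 in WT livers 1 to 5. The ranges overlapped through WT replicate 2, and the 3 WT females lay below both WT males. The means of 1.81 ± 0.526 in KO livers and 4.09 ± 1.57 in WT livers gave a log2 fold change of -0.82 (SE 0.24), with 35.1 to 71.6 normalised reads per KO liver and 63.5 to 176 per WT liver. In the authors' deposited table it was not called. With equal totals its log2 fold change was -0.53 and it was not called.

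The order of the 10 by level differed between the genotypes, most of all in the place of Cd63. In KO livers the order by mean was Cd81, Cd63, Tspan12, Cd9, Cd82, Cd151, Tspan4, Tspan3, Tspan8 and Tspan33. Among neighbours in that order, the ranges of Cd63 and Tspan12, of Tspan12 and Cd9, and of Tspan3 and Tspan8 overlapped. In WT livers it was Cd81, Tspan12, Cd9, Cd82, Tspan4, Cd151, Cd63, Tspan33, Tspan3 and Tspan8, where the ranges of Cd9 and Cd82, of Cd82 and Tspan4, of Cd151 and Cd63, and of Tspan33 and Tspan3 overlapped. Cd63 was thus second by level in KO livers and seventh in WT livers, Cd151 and Tspan4 changed places, and Tspan33 was last in KO livers but above Tspan3 and Tspan8 in WT livers.

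Cd151 and Tspan4 are neighbours on chromosome 7, where their listed transcripts (141467422 to 141471463 and 141476400 to 141493421, both on the plus strand, GRCm38) are 4936 bases apart. Cd151 was the higher of the pair in KO livers (20.7 for Cd151, 13.8 for Tspan4) and the lower in WT livers (11.9 for Cd151, 19.0 for Tspan4). Cd81 lies on the same chromosome (143052739 to 143067934, plus strand), 33252 bases beyond Tspan32. That tetraspanin of blood cells stood at 0.265, 0.294, 0 and 0.318 in KO livers 1 to 4, against 0.105, 0.0814, 0.251, 0 and 0 in WT livers 1 to 5, too low to test. The sources used here do not say whether reads keep their strand, and annotated genes overlap Cd9, Cd81, Cd82, Cd151, Tspan4, Tspan8 and Tspan12 on the opposite strand, so their values can hold reads of those genes.

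Among the other tetraspanins, 9 of 21 passed the filter, and 5 of these 9 rose in KO livers while none fell (limma, adjusted over all 10950 transcripts, against 21.4% of all transcripts called higher and 35.9% in either direction). This list is the rest of the family, drawn up with earlier results of these livers known. Of the 5, Tspan6 and Tspan13 averaged under 1 in WT livers and passed the filter only through the KO livers, so their increases are no support. Of the 7 others 3 rose. Cd53, a tetraspanin of leukocytes, stood at 14.9 in KO livers and 9.76 in WT livers on average (log2 fold change 0.56, SE 0.08, limma adjusted p = 0.000906). Tspan9 and Tspan7 rose by log2 fold changes of 0.51 (adjusted p = 0.000726) and 0.46 (0.00414) in limma. Tspan6 averaged 1.70 in KO livers and 0.528 in WT livers, and Tspan13 averaged 2.08 in KO livers and 0.977 in WT livers. Tspan7, with its 7-base site, averaged 23.1 in KO livers and 16.5 in WT livers, and was not called among males alone (limma adjusted p = 0.116).

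The 4 tested tetraspanins that did not pass were Tspan31, Tspan14, Tspan15 and Rom1, a photoreceptor protein. Tspan31 averaged 154 in KO livers and 141 in WT livers (log2 fold change 0.12, SE 0.10, limma adjusted p = 0.382), so its listed value was about that of Cd81. Cdk4 overlaps Tspan31 on the opposite strand, so this value too can hold reads of another gene. Tspan14 and Tspan15, both of the TspanC8 group like Tspan33, had log2 fold changes of 0.22 (limma adjusted p = 0.138) and 0.22 (0.247). With equal totals 8 of the 9 were called higher, all but Tspan15, against 45% of all transcripts. With sex as a covariate Tspan14 (limma adjusted p = 0.0390) and Rom1 (0.0363) were called higher. Tspan17, also of the TspanC8 group, missed the filter narrowly: it stood at 1.54, 2.27, 1.04 and 2.32 in KO livers 1 to 4, against 0.260, 0.823, 0.388, 0 and 0.309 in WT livers 1 to 5. Cd37, a leukocyte tetraspanin, stood at 0.813 to 1.33 in KO livers and 0.00771 to 0.850 in WT livers, also below the filter. Prph2 was listed at 0 in every liver.

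**Figure D3:**
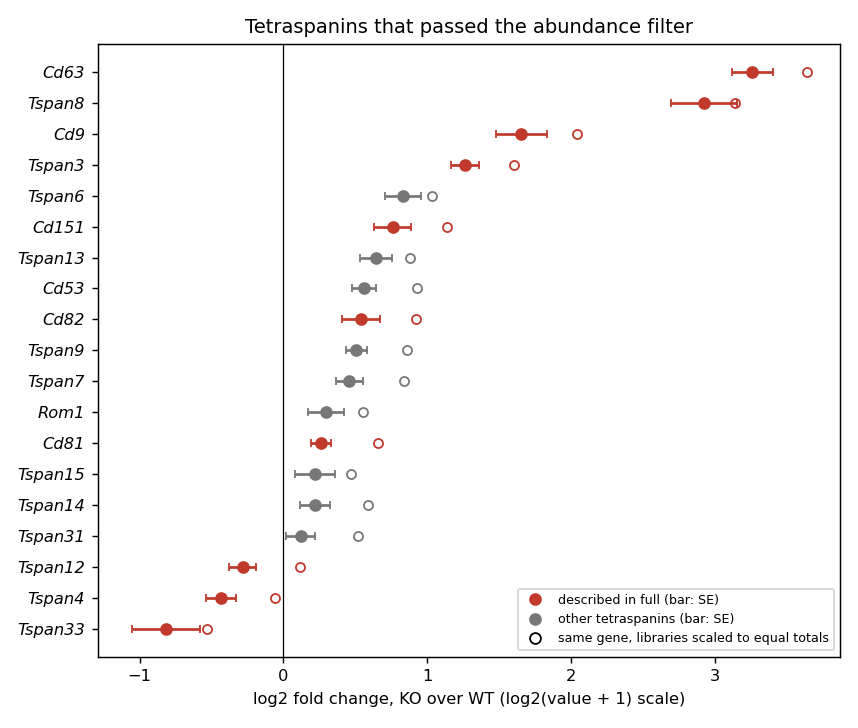
Log2 fold change, KO over WT, with its SE, for the 19 tetraspanins that passed the filter, the 10 described in full in red and the other 9 in grey; open circles give the same gene with libraries scaled to equal totals. Cd63 at 3.26 and Tspan8 at 2.93 stand far to the right, Tspan33 at -0.82 farthest to the left, and equal totals move every gene to the right, taking Tspan12 across 0.

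Genes whose proteins bind tetraspanins came to 17 on the list, of which 13 were tested. Of these 8 were called higher, 1 fell and 4 did not pass (limma), against 21.4% of all transcripts called higher and 14.5% lower. The 5 genes Epcam, Cldn7, Ptgfrn, Itga3 and Itga6 averaged under 1 in WT livers and passed the filter only through the KO livers, so the count of 8 is no support, and their p-values are not given. Of the 8 genes with a mean of at least 1 in both genotypes, 3 rose, 1 fell and 4 did not pass. These 4, named after their values were seen, were Igsf8 (log2 fold change 0.37, SE 0.53), Lrp5 (-0.18), Cldn1 (-0.05) and Itgb1 (0.006). Of them only Itgb1 was called with equal totals, as higher. With a minimum mean of 5, 2 of 5 partner genes were called, against 2589 of 6659 transcripts in that fit. Epcam, an epithelial adhesion protein, averaged 8.76 in KO livers and 0.885 in WT livers (log2 fold change 2.38). Cldn7, a claudin that joins EpCAM and tetraspanins in 1 complex, averaged 6.75 in KO livers and 0.481 in WT livers (log2 fold change 2.38). Ptgfrn, a direct partner of CD9 and CD81, averaged 2.63 in KO livers and 0.942 in WT livers (log2 fold change 0.90).

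Adam10, the protease that TspanC8 proteins escort, stood at 26.7, 22.2, 24.2 and 22.8 in KO livers 1 to 4, against 11.9, 10.7, 11.3, 13.7 and 12.3 in WT livers 1 to 5. It rose 2.00-fold without overlap (log2 fold change 0.94, SE 0.09, limma adjusted p = 4.97e-05), whereas Tspan33 was lower. Fzd4, the only partner gene that fell and named after its values were seen, averaged 3.36 in KO livers and 5.84 in WT livers (log2 fold change -0.66, limma adjusted p = 0.0295). Fzd4 was not called with equal totals, in males only, with no filter, with sex in the model or with a replicate block. It also lost its call when any 1 of KO livers 2 and 4 and WT livers 2 and 4 was left out. Timp1, an inhibitor of metalloproteinases that binds CD63, stood at 2.47, 2.10, 2.62 and 0.0139 in KO livers 1 to 4, against 0, 0.0839, 0, 0.134 and 0 in WT livers 1 to 5. Its KO replicate 4 lay within the WT range, its mean was below the filter, and it too was named after its values were seen.

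Genes of vesicle formation and late endosomes were mixed. Of 16 listed, 14 were tested, 5 rose, 1 fell and 8 did not pass (limma, median log2 fold change 0.19). Over all transcripts 35.9% were called, 21.4% higher and 14.5% lower, and nothing is read from a count of so few genes. Vps4a, an ATPase that drives membrane scission, averaged 16.3 in KO livers and 10.6 in WT livers (log2 fold change 0.58, limma adjusted p = 0.000348). Chmp4b, a scission filament protein, rose by 0.44 (limma adjusted p = 0.00113), Sdcbp, which encodes the CD63-binding adaptor syntenin, by 0.45 (0.00415) and Rab35 by 0.38 (0.007). Lamp2, a lysosomal membrane protein like CD63, fell and was named after its values were seen, with 269 in KO livers and 357 in WT livers (log2 fold change -0.41, limma adjusted p = 0.00713). With equal totals 12 of the 14 were called higher and none lower, against 45% and 2.72% of all transcripts.

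L6 proteins cross the membrane as tetraspanins do but form another family. Of 4 listed, 2 were tested. Tm4sf4 rose to 240 ± 12.2 in KO livers, against 61.8 ± 10.9 in WT livers (log2 fold change 1.95, SE 0.13, limma adjusted p = 7.19e-06). Tm4sf1 averaged 10.8 in KO livers and 7.79 in WT livers and did not pass (limma adjusted p = 0.0621). WT replicate 5 stood at 4.58 and the other WT livers at 8.26 to 8.90, and without that library Tm4sf1 was called.

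Transcripts with a profile like that of Cd63 were ranked by the root mean square difference over the 9 libraries in log2(value + 1), centred on the WT mean. The 5 closest of 10254 were Tmem45a (0.31), Vil1 (0.32), Npdc1 (0.32), Slc44a4 (0.32) and Pls1 (0.35). Tmem45a, Vil1 and Slc44a4 averaged 0.783, 0.353 and 0.121 in WT livers and passed the filter only through the KO livers. Vil1 encodes villin, a bundling protein of microvilli, and stood at 15.3 ± 0.527 in KO livers and 0.353 ± 0.176 in WT livers. Pls1, which encodes another bundling protein of microvilli, stood at 22.7 ± 2.67 in KO livers and 2.08 ± 0.383 in WT livers. Tspan8 was the nearest of the other 9 tetraspanins, at rank 14 (0.44), followed by Cd9 at rank 174 (1.14) and Tspan3 at rank 312 (1.36). The ranking describes similar size and spread over these libraries.

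Sex was a comparison that played no part in choosing the genes. With genotype in the model, 50 of 10950 transcripts (0.457%) differed between males and females (limma), and none of the 10 tetraspanins did. One of the 10, Cd82, had an unadjusted p under 0.05. Its log2 difference, male over female, was 0.30 (SE 0.11, limma adjusted p = 0.43). Tspan33 was 0.48 (SE 0.21) and Tspan8 -0.46 (SE 0.20) by the same measure, with limma adjusted p of 0.542 and 0.535. Tspan33 averaged 5.58 in WT males and 3.10 in WT females, and Tspan8 was listed at 0 in both WT males and at 0.817, 0.416 and 0 in WT females 1 to 3. Cd151 averaged 9.86 in WT males and 13.2 in WT females (log2 difference -0.20, SE 0.13, limma adjusted p = 0.686). The remaining 6 lay between -0.03 (Tspan3) and 0.16 (Cd63). With 4 females and 5 males, differences of this size did not pass the threshold. Among males alone the genotype difference was called for 6 of the 10: Cd63, Cd9, Cd151, Tspan3 and Tspan8 higher and Tspan33 lower. In that fit 21.2% of 11020 transcripts were called, 13.5% higher and 7.65% lower, and nothing is read from the count.

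**Figure D4:**
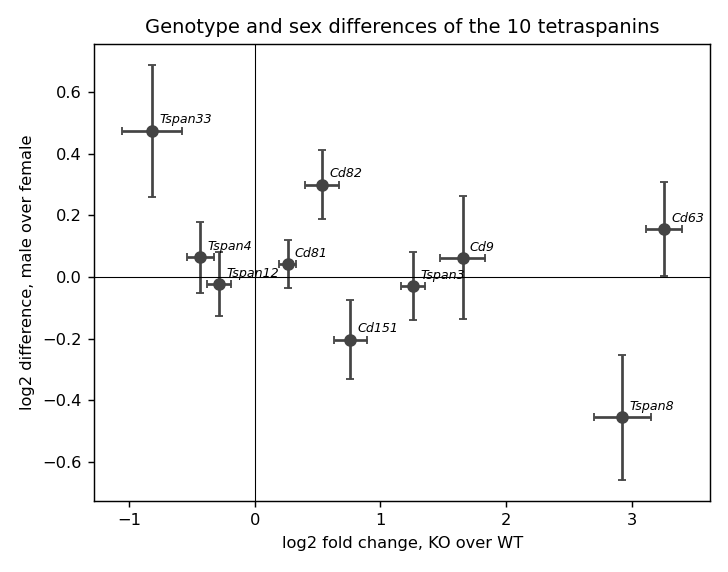
Log2 difference between males and females (vertical axis) against log2 fold change between KO and WT (horizontal axis) for the 10 tetraspanins, with bars of 1 SE. The sex differences span -0.46 (Tspan8) to 0.48 (Tspan33), and the genotype differences -0.82 to 3.26.

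The summed markers of some other liver cell types also differed between the genotypes. The 9 cholangiocyte markers, of which 5 were tested, summed to 21.5 to 26.6 in KO livers and 4.74 to 6.22 in WT livers, a ratio of means of 4.09. Epcam and Cldn7, which are also among the partner genes above, carried most of that rise. The 8 Kupffer cell and macrophage markers, all tested, summed to 420 to 492 in KO livers and 231 to 299.95 in WT livers (ratio 1.82), and the 6 lymphocyte markers, 1 tested, to 6.80 to 11.3 in KO livers and 2.76 to 6.29 in WT livers (ratio 2.23). Most of the lymphocyte rise lay in Ptprc, a gene of all leukocytes (5.55 in KO livers, 1.62 in WT livers). Without it, an alternative chosen after seeing the data, the sums overlapped at 2.79 to 3.99 in KO livers and 1.73 to 3.08 in WT livers. The sums of neutrophil (54.1 to 120.1 in KO, 11.2 to 59.4 in WT), platelet (2.13 to 3.67 in KO, 1.05 to 2.15 in WT), erythroid (907 to 1863 in KO, 726 to 1231 in WT) and stellate markers (212 to 269 in KO, 128 to 227 in WT) overlapped between the genotypes. The stellate sum was mostly Dcn. In 5 of its 8 markers (Acta2, Col1a1, Des, Pdgfrb and Reln) every KO liver lay above every WT liver, against 19% of all tested transcripts. Nothing is read from a count of so few genes. Col1a1 averaged 8.40 in KO livers and 1.10 in WT livers. The sums also overlapped for endothelial (59.7 to 77.4 in KO, 58.1 to 83.7 in WT) and hepatocyte markers (47934 to 66174 in KO, 43478 to 108399 in WT). Within these lists, Cdh5 was higher in every KO liver than in any WT liver (means 8.20 in KO, 6.48 in WT). Lyve1 (1.15 in KO, 2.83 in WT) and Apoa1 (4378 in KO, 6002 in WT) were lower in every KO liver than in any WT liver. No marker was at 0 in every liver of a genotype. The part of these cell types in the differences of Cd63, Cd9, Tspan8, Cd53 and the others was not tested.

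**Figure D5:**
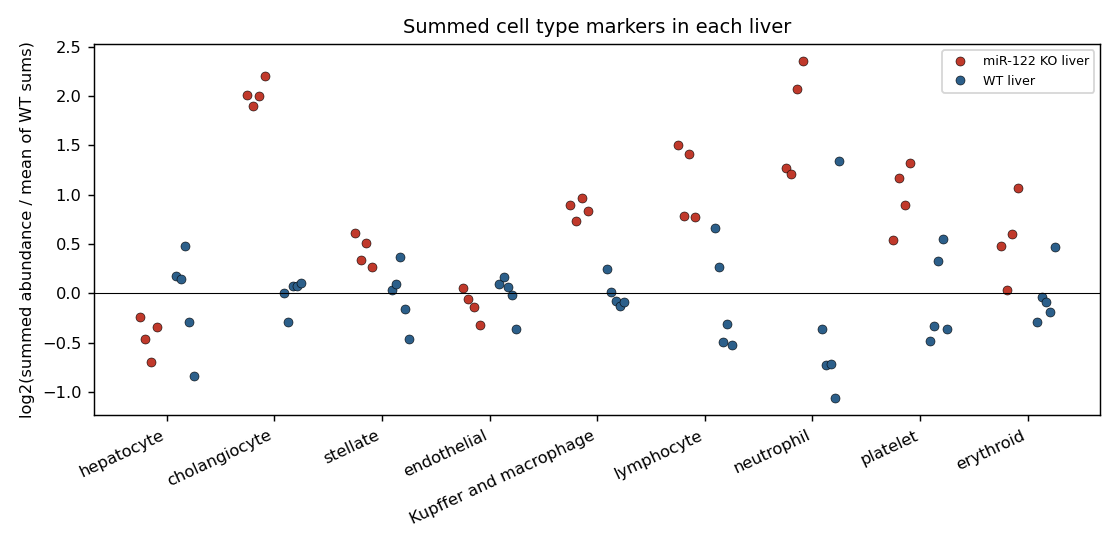
Summed abundance of each list of cell type markers in every liver, as log2 over the mean of the WT sums, with KO livers in red on the left of each pair and WT livers in blue on the right. The KO sums lie above all WT sums for the cholangiocyte, Kupffer cell and macrophage, and lymphocyte lists, and overlap with them for the other 6.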

How the data were processed

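Per the labels' protocols, polyA RNA from uncrosslinked liver powder was sequenced, and the submitters' processing notes name kallisto, sleuth and mm10. The sources used here give no versions, no transcript set and no rule for keeping 1 transcript per gene. The library columns deposited by the authors were treated as a normalised signal, since their sums differ between libraries (0.711 to 0.869 M in KO, 0.873 to 1.17 M in WT) and some pass 1 M, so they are not TPM. The p-value and q-value columns are those of the submitters' own test, per the file headers. Per the file headers the deposited table also holds a sleuth coefficient with its error and a mean of observations, both in natural log units. The values show that the coefficient runs WT minus KO, and it was turned round and converted to log2 here. Normalised reads were computed from the mean observation and the values, and rest on equal effective lengths in all libraries. They cover counting error only, and 0 library pairs had identical values.

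Transcripts with a mean of at least 1 were put on a log2(value + 1) scale. The limma fit (version 3.58.1 in R 4.3.3) compared genotypes with no other term and a variance prior that follows abundance. Its p-values were adjusted by Benjamini-Hochberg over 10950 transcripts, with a threshold of 0.05. Fold changes on this scale understate changes of low genes. Sex was tested with genotype as a term. The fit was tested on simulated data. A replicate is 1 animal, and litters are not labelled. Symbols of 31 of 31 tetraspanins matched GENCODE M21 (GRCm38, the assembly mm10 names) by gene ID. Promoters are from RefSeq, and motifs were chosen from common textbook elements. The microRNA's own sequence, most site windows and the values of some markers are not reported here.

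The 10 genes and all lists and alternatives were chosen with earlier results of these data known. All 10 and the tested other tetraspanins are named, as are up to 4 genes with the smallest adjusted p in the partner, vesicle and L6 lists, and the 5 transcripts nearest to Cd63. Alternatives were other pseudocounts and filters, equal totals, sex as a covariate, males alone, a replicate block, no trend, the submitters' test and leaving out each library.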

Additional observations from a re-analysis of the deposited data

Results flagged for a closer look

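Groups of 4 KO or 5 WT livers were screened for 1 library far from the others in abundance. Of 88 groups 7 had one, and chance alone gives about 1 in 20. Cd151 stood at 24.9 in KO replicate 4, with the other KO livers at 18.8 to 19.6. Tspan13 stood at 0.630 in WT replicate 5, with the other WT livers at 0.983 to 1.10. Sdcbp stood at 59.8 in KO replicate 2, with the others at 68.2 to 69.8. Tm4sf4 stood at 258 in KO replicate 4, with the others at 232 to 234.5. Tm4sf1 stood at 4.58 in WT replicate 5, with the others at 8.26 to 8.90. In the same library the neutrophil markers summed to 59.4, with the other WT livers at 11.2 to 18.2, and the erythroid markers to 1231, with the others at 726 to 864.5.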

How the results depend on the processing

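Over all alternatives, 176 log2 fold changes of the 10 tetraspanins kept their direction and side of the threshold, 21 kept the direction but lost the call and 1 reversed. The reversal was Tspan12 with equal totals, at 0.11. Cd63, Cd9, Cd151, Tspan3 and Tspan8 were called under every alternative in which they were tested. Tspan12 lost its call when any KO liver but replicate 3, or any WT liver but replicate 5, was left out. Tspan33 lost its call when KO livers 1 or 2, or WT livers 3 or 4, were left out, and Cd81 without KO replicate 4. Leaving out 1 library called 8 to 10 of the 10. The cause of these losses was not tested.

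With a minimum mean of 5, which tests fewer genes, 2589 transcripts, 3 other tetraspanins and 2 partner genes were called, against 3934, 5 and 9. Among males alone 2336 transcripts, 6 of the 10 and 3 vesicle genes were called, against 3934, 10 and 6. With equal totals 4926 transcripts were higher and 298 lower, against 2345 and 1589; 8 other tetraspanins and 12 vesicle genes were called, and 84 transcripts by sex. L6 relatives called came to 2, against 1, with a minimum mean of 0.1, no filter, equal totals and sex as a covariate, and to 1 to 2 when 1 library was left out. By sex, leaving out 1 library gave 27 to 142 transcripts, against 50; without KO replicate 1, the only KO female, it was 142. The 6-base core, counted as a site, gave 2 of the 10.

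Replicate numbers are shared by the genotypes in the titles, but the deviations of same-numbered livers correlated at 0.23, 0.08, -0.18 and 0.11, so the numbers were not taken as pairs. With the replicate block 3557 transcripts and all 10 tetraspanins were called by genotype, and 0 transcripts by sex (limma; 636 at an unadjusted p under 0.05).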
